A study of Mus musculus with 4 samples.

Results

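Receptor tyrosine kinases for growth factors were followed in fibroblasts with and without PTIP through 10 genes: Pdgfra, Pdgfrb, Egfr, Fgfr1, Fgfr2, Met, Kit, Flt1, Kdr and Axl. Every probe set annotated to a single one of these symbols was taken, which gave 29 of the 45037 probe sets that are not array controls, for 10 of the 18193 genes with a probe set of their own. Immortalized mouse embryonic fibroblasts (MEFs), PTIP flox/flox, had been infected with a Cre retrovirus, giving PTIP -/- cells, or with the vector alone, giving cells labelled PTIP +/+ that still carry both floxed alleles. Both populations were kept in serum-containing medium, which itself holds growth factors, and were selected with puromycin. Each of the 2 genotypes gave 2 RNAs, numbered 1 and 2, and each RNA went to 1 Affymetrix array, so 4 arrays limit the precision of every value. What a number stands for, a culture of its own or another aliquot, is not in the labels, so p-values measure only the spread between these RNAs, which may be technical.

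A receptor of this family spans the membrane, is brought together in pairs by its ligand, and then phosphorylates itself and its docking proteins inside the cell. Adaptors such as Grb2 and Sos1 carry the signal on to Ras and ERK, and inhibitors such as the Sprouty and Dusp proteins, made in response to ERK, damp it again. In fibroblasts the PDGF, FGF and EGF receptors drive division and migration, Met and Axl respond to HGF and to Gas6, and Kit, Flt1 and Kdr are best known from blood, pigment and endothelial cells. PTIP, encoded by Paxip1, belongs to the MLL3/MLL4 histone methyltransferase complexes.

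Paxip1 read 43.5 and 74.6 in PTIP -/-, against 1029.5 and 1040.1 in PTIP +/+, so the deleted gene follows the labels. Here and below the values of a genotype are those of numbers 1 and 2 in that order. Vim, an intermediate filament and the brightest of 9 fibroblast markers, read 30992.3 and 33293.8 in PTIP -/-, against 31040.7 and 39291.8 in PTIP +/+. Of the other markers, Lum, a proteoglycan, was near the level given next, at 52.0 and 31.7 in PTIP -/-, against 37.9 and 61.6 in PTIP +/+. Dcn, another, read 242.7 and 18.7 in PTIP -/-, against 1266 and 84.5 in PTIP +/+. It was 5.22-fold lower in number 1 and, since 18.7 is below that level, at least 1.77-fold lower in number 2. Of the 8 fibroblast markers tested, 5 were lower in PTIP -/- and 3 higher on the deposited scale. Signals are linear intensities, and 47.68 (the 40th percentile over mean probe-set signals) was taken as the lowest signal read as a level. Between 34.11% and 40.56% of probe sets lay below it on each array. Changes are PTIP -/- minus PTIP +/+ on the log2 scale, and the median change of the 12509 genes tested was 0.05. Signals of different genes come from different probes and are not set against each other.

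Flt1 was lower in PTIP -/- on all of its probe sets within both numbers. Its genotypes did not overlap on the brightest probe set, unlike those of any other receptor tested, but did on 1440926_at and 1451756_at. Pdgfra and Fgfr2 were lower in PTIP -/- on their brightest probe sets within both numbers, but both differed far more between the numbers than between the genotypes. Met differed in opposite directions in the 2 numbers. Axl, Fgfr1, Pdgfrb and the brightest probe set of Egfr differed little, and Kit was below the level on all 4 arrays. No receptor passed the test across all genes.

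Among the receptors tested, the windows around the start sites of the 4 whose brightest probe sets differed most within a number are shown. The sequence at each start can so be read beside the values below. Nothing bound to these windows was measured here. Windows for 8 of the 10 genes were taken from the RefSeq table of build GRCm38.p6, from 250 bases before the start to 50 after it. Fgfr1 has no window there, and Pdgfrb was left out of the search. Capitals mark matches on either strand to the GC box GGGCGG, the TATA box TATAAA, the cyclic AMP response element TGACGTCA, the AP-1 site TGACTCA and the ETS site CCGGAAG. None of these matches overlap each other. The Flt1 window lies at chr5:147725962-147726261 (minus strand), that of Pdgfra at chr5:75152001-75152300 (plus strand), that of Fgfr2 at chr7:130266759-130267058 (minus strand) and that of Met at chr6:17463707-17464006 (plus strand).
Flt1: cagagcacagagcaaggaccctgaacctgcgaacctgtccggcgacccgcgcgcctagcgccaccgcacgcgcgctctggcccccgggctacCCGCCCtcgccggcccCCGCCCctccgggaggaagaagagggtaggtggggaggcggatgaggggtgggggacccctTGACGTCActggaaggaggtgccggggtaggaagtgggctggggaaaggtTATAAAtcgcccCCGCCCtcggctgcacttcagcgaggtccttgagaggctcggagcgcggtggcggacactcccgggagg
Pdgfra: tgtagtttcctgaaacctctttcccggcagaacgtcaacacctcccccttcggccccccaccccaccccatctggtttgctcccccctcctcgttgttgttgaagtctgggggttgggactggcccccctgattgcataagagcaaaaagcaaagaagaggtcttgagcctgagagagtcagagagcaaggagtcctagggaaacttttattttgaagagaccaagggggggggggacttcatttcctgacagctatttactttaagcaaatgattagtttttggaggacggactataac
Fgfr2: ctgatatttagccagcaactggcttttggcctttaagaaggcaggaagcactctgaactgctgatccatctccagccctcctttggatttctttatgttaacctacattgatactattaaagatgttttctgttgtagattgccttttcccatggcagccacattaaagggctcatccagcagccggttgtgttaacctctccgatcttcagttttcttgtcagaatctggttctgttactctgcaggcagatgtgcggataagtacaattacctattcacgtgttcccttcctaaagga
Met: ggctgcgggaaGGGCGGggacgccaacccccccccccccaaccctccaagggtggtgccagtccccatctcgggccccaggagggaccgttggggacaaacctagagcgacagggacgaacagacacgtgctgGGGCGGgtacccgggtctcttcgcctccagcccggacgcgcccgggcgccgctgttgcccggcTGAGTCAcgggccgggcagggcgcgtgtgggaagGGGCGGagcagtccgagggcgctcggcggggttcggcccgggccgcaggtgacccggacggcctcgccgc

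The Flt1 window held 3 GC boxes, a TATA box that starts 31 bases before the start site and a cyclic AMP response element that starts 81 bases before it. Of all 32851 windows, 35.7% held a GC box, 13.6% the TATA box, 1.79% the cyclic AMP response element, 5.2% the AP-1 site and 8.86% the ETS site. The Met window held 3 GC boxes and 1 AP-1 site. In the windows of Pdgfra and Fgfr2 none of the searched letters occurred. Those windows had 5 and 4 CpG pairs, below the median of 7 over all windows, while those of Flt1 and Met had 29 and 34. A match is only a match of letters, and its absence from a window says nothing of the factor.

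Flt1, also called VEGF receptor 1, binds VEGF-A, VEGF-B and PlGF. The brightest probe set read 125.4 and 59.6 in PTIP -/-, against 619.3 and 241.5 in PTIP +/+. Both PTIP -/- arrays lay below both PTIP +/+ arrays, an order that 12.1% of all genes tested had. The reverse order held for 16.6% of genes and 0 receptors. The mean log2 signal was 6.43 ± 0.76 against 8.60 ± 0.96 (SD, n = 2 each), which is 4.47-fold lower in PTIP -/-. The log2 change was -2.16 ± 0.65 (SE), with a 95% interval from -3.92 to -0.40 that is not adjusted for the number of genes. Within number 1 the difference was 4.94-fold and within number 2 it was 4.05-fold. With limma the adjusted p over all genes was 0.999, and Flt1 was the single one of the 9 receptors tested with an unadjusted p under 0.05, a mark reached by 2.29% of all genes tested. With the replicate number as a block, Fgfr2 was also under that mark and neither passed after adjustment (adjusted p = 0.601 for both, limma).

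The other 3 probe sets of Flt1 were lower in PTIP -/- too, by very different amounts. Probe set 1419300_at read 118.8 and 6.6 in PTIP -/-, against 1065.4 and 343.1 in PTIP +/+. That is 8.97-fold lower in number 1 and, since 6.6 is below the level, at least 7.20-fold lower in number 2. Probe set 1451756_at read 151.5 and 46.0 in PTIP -/-, against 614.8 and 101.1 in PTIP +/+, 4.06-fold lower in number 1 and at least 2.12-fold lower in number 2. Probe set 1440926_at read 128.6 and 64.3 in PTIP -/-, against 555.2 and 68.6 in PTIP +/+. Here the difference lay in number 1 at 4.32-fold, and number 2 gave 1.07-fold. All 4 probe sets were thus at least 4-fold lower in number 1, whereas in number 2 they disagreed on the size.

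Kdr, VEGF receptor 2 and the main signalling receptor for VEGF-A in endothelium, has 1 probe set. It read 172.0 and 124.1 in PTIP -/-, against 107.0 and 126.5 in PTIP +/+. The genotypes overlapped, and the log2 change was 0.33 ± 0.30 (SE), with a 95% interval from -0.50 to 1.15. Among 8 endothelial markers the summed signal ran from 179.6 to 352.6 in PTIP -/- and from 231.5 to 310.8 in PTIP +/+. Of these markers Pecam1, Vwf and Tie1 were below the level on all 4 arrays. The brightest, Esam, read 76.0 and 61.0 in PTIP -/-, against 38.5 and 69.7 in PTIP +/+. In RNA from a whole culture, fewer cells of a type and less RNA per cell cannot be told apart.

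**Figure D1:**
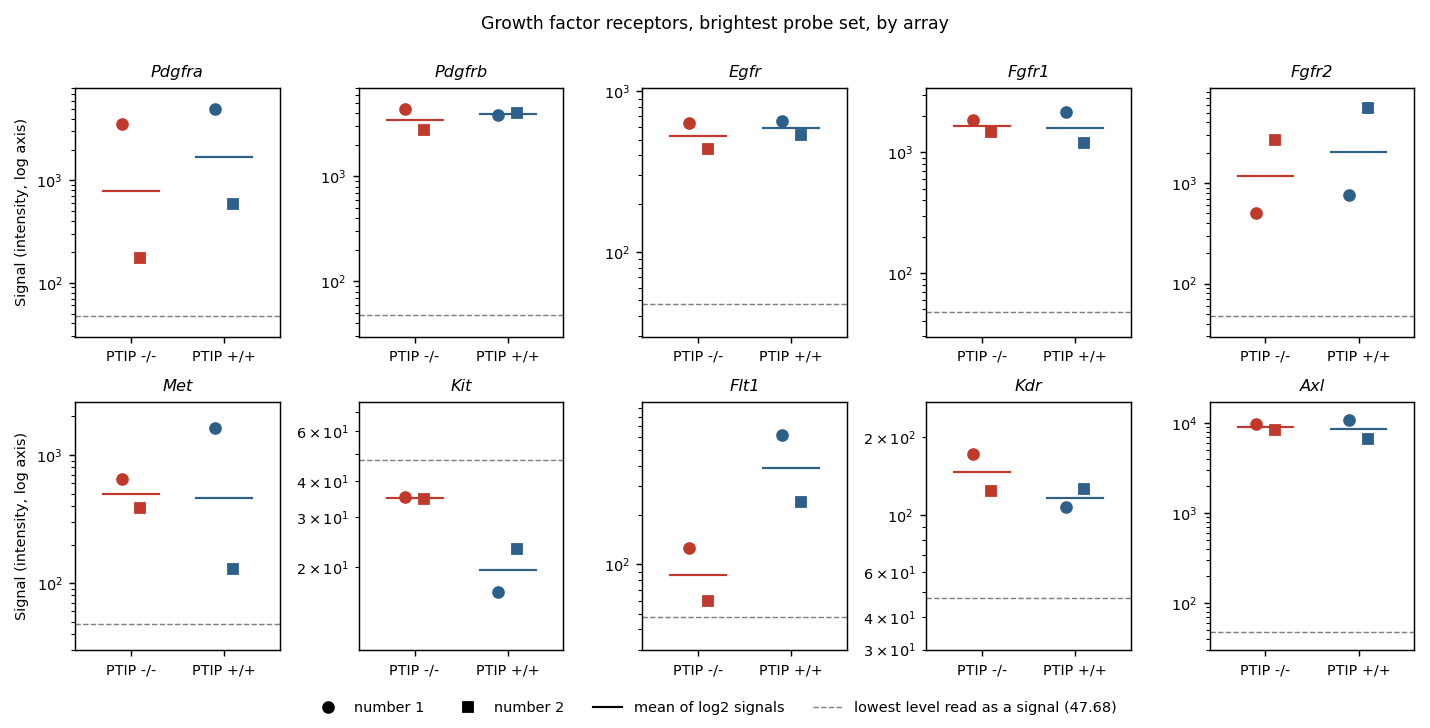
Signal of the brightest probe set of each receptor (intensity, log axis, its own scale in every panel) in 2 PTIP -/- and 2 PTIP +/+ arrays. Circles are number 1, squares number 2, bars the mean of the log2 signals and the dashed line the level of 47.68. Flt1 is lower in both PTIP -/- arrays, the arrays of Pdgfra and Fgfr2 part by number, and Kit lies below the dashed line throughout.

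Pdgfra, the receptor for PDGF-A, PDGF-B and PDGF-C that marks many mesenchymal progenitors, read 3563.4 and 174.2 in PTIP -/-, against 5010.1 and 583.2 in PTIP +/+. The number 2 arrays were 20.5-fold (PTIP -/-) and 8.59-fold (PTIP +/+) lower than their number 1 partners. Against this, PTIP -/- was 1.41-fold lower than PTIP +/+ in number 1 and 3.35-fold lower in number 2. The log2 change over all arrays was -1.12 ± 1.86 (SE), with a 95% interval from -6.21 to 3.97. Both genotypes were high in number 1 and low in number 2. Probe set 1421916_at read 858.7 and 90.3 in PTIP -/-, against 1108.1 and 279.6 in PTIP +/+. Probe set 1438946_at read 186.0 and 62.4 in PTIP -/-, against 467.6 and 90.6 in PTIP +/+. All 3 were lower in PTIP -/- within both numbers, with log2 changes of -0.93 to -1.12. They did not share the pattern of size: 1438946_at was lower by 2.51-fold in number 1 and by 1.45-fold in number 2.

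Pdgfrb, the second receptor of the pair, which binds PDGF-B and PDGF-D, did not follow Pdgfra. The brightest probe set read 4378.2 and 2766.3 in PTIP -/-, against 3883.7 and 4021.4 in PTIP +/+, a log2 change of -0.18 ± 0.33 (SE) with a 95% interval from -1.09 to 0.72. The other, 1417148_at, read 1266.8 and 894.8 in PTIP -/-, against 1073.6 and 838.5 in PTIP +/+, and gave 0.17, the opposite sign. On neither probe set were the genotypes apart.

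Fgfr2, a receptor whose splice forms answer to FGFs of mesenchyme or of epithelium, read 508.4 and 2681.5 in PTIP -/-, against 764.6 and 5505.0 in PTIP +/+. Number 2 was 5.27-fold (PTIP -/-) and 7.20-fold (PTIP +/+) above number 1, the reverse of Pdgfra. The log2 change was -0.59 in number 1 and -1.04 in number 2. Over all arrays it was -0.81 ± 1.31 (SE), with a 95% interval from -4.39 to 2.76. Probe set 1420847_a_at read 284.5 and 1698.7 in PTIP -/-, against 354.1 and 3992.4 in PTIP +/+, lower by 1.24-fold in number 1 and by 2.35-fold in number 2. The dim 1443211_at, at 79.3 and 90.3 in PTIP -/-, against 46.5 and 122.7 in PTIP +/+, gave 0.16 and opposite signs in the numbers. The splice form read by each probe set was not analysed here.

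Fgfr1, the more widely expressed FGF receptor of fibroblasts, was nearly level. The brightest probe set read 1861.2 and 1484.7 in PTIP -/-, against 2144.2 and 1187.8 in PTIP +/+. The log2 change was 0.06 ± 0.40 (SE), with a 95% interval from -1.02 to 1.14, and turned to -0.12 with arrays centred on their medians. Probe set 1424050_s_at read 1308.0 and 1242.2 in PTIP -/-, against 1690.0 and 1307.3 in PTIP +/+, a log2 change of -0.22. Probe set 1436551_at read 259.6 and 257.7 in PTIP -/-, against 325.7 and 221.3 in PTIP +/+, a change of -0.05. In number 1 all 3 were lower in PTIP -/-, by 1.15-fold to 1.29-fold.

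Met, the receptor for hepatocyte growth factor, disagreed between the numbers more than any other receptor tested, by brightest probe set. The brightest probe set read 644.7 and 386.9 in PTIP -/-, against 1633.7 and 129.3 in PTIP +/+. In number 1 Met was lower in PTIP -/- by 2.53-fold, and in number 2 it was higher by 2.99-fold. The change over all arrays, 0.12 ± 1.31 (SE), therefore stands for neither number, and its 95% interval ran from -3.46 to 3.70. The signals of PTIP +/+ differed 12.6-fold between the numbers and those of PTIP -/- 1.67-fold. Of all genes tested, 0.48% were at least 2-fold apart in opposite directions in the numbers, and Met was the single such gene among the 9 receptors. The other probe set read 313.4 and 186.5 in PTIP -/-, against 357.5 and 61.8 in PTIP +/+, 3.02-fold higher in number 2 and 1.14-fold lower in number 1. Both probe sets thus had the same signs, and both put the higher PTIP -/- signal in number 2 at close to 3-fold.

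**Figure D2:**
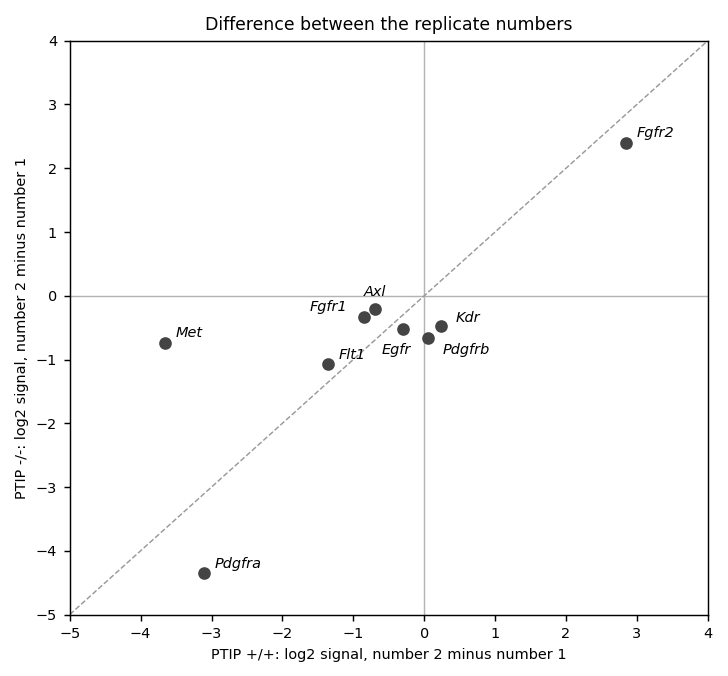
Difference between the replicate numbers in log2 signal, PTIP -/- on the vertical axis and PTIP +/+ on the horizontal axis, for the brightest probe sets of the 9 receptors tested. On the dashed line both genotypes differ alike. Pdgfra (-4.35 in PTIP -/-, -3.10 in PTIP +/+) and Fgfr2 (2.40 and 2.85 in the same order) lie at opposite ends, and Met (-0.74 and -3.66) lies off the line.

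Across the receptors the numbers differed more than the genotypes did. The median size of the log2 difference between number 2 and number 1 was 0.66 in PTIP -/- and 0.85 in PTIP +/+, beside 0.38 and 0.43 over all genes tested. That between the genotypes was 0.49 in number 1 and 0.54 in number 2, beside 0.23 and 0.34 over all genes. In 6 of the 9 receptors tested the 2 arrays of number 1 did not overlap those of number 2, which held for 55.2% of all genes. Pdgfra and Fgfr2 differed at least 4-fold the same way between the numbers in both genotypes, as did 2.4% of all genes. The fibroblast marker Thy1, chosen after its values were seen, also parted by number, at 14822.9 and 1500.7 in PTIP -/-, against 16080.1 and 239.2 in PTIP +/+. Of the 9 fibroblast markers, Thy1 and Dcn were higher in both number 1 arrays, Vim, Fn1 and Col3a1 were higher in both number 2 arrays, and 4 overlapped between the numbers. Their part in the receptor values was not tested.

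Egfr, the receptor for EGF, TGF-alpha and HB-EGF, depended on the probe set. The brightest, 1460420_a_at, read 631.6 and 440.2 in PTIP -/-, against 658.0 and 535.9 in PTIP +/+, a log2 change of -0.17 ± 0.32 (SE) with a 95% interval from -1.04 to 0.69. A pair of dimmer probe sets were lower by more than that. Probe set 1435888_at read 39.7 and 100.2 in PTIP -/-, against 86.9 and 213.5 in PTIP +/+, lower by at least 1.82-fold in number 1 and by 2.13-fold in number 2. Probe set 1424932_at read 31.8 and 89.3 in PTIP -/-, against 58.8 and 219.9 in PTIP +/+, lower by at least 1.23-fold in number 1 and by 2.46-fold in number 2. These were also higher in number 2 than in number 1, unlike the brightest. Of the remaining 4, 1432647_at read 120.0 and 107.3 in PTIP -/-, against 152.4 and 106.0 in PTIP +/+. The signals of 1451530_at were 102.2 and 71.0 in PTIP -/-, against 66.2 and 103.9 in PTIP +/+, and those of 1454313_at 145.9 and 77.3 in PTIP -/-, against 103.3 and 90.1 in PTIP +/+. These 3 gave log2 changes between -0.16 and 0.14, each with opposite signs in the numbers, and 1457563_at was below the level on all 4 arrays.

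Axl, which binds Gas6 and takes part in survival and in the clearance of dead cells, was bright in every array. It read 9797.0 and 8476.7 in PTIP -/-, against 10901.8 and 6731.9 in PTIP +/+. The log2 change was 0.09 ± 0.35 (SE), with a 95% interval from -0.86 to 1.04, and was -0.09 with arrays centred on their medians. In PTIP -/- Axl was lower by 1.11-fold in number 1 and higher by 1.26-fold in number 2, so the genotypes overlapped. A second probe set, 1438621_x_at, was below the level on all arrays, at 40.2 and 39.4 in PTIP -/-, against 25.2 and 23.4 in PTIP +/+.

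Kit, the receptor for stem cell factor, read 35.3 and 34.6 in PTIP -/-, against 16.3 and 23.2 in PTIP +/+ on its brighter probe set. The other read 11.2 and 9.0 in PTIP -/-, against 4.9 and 13.6 in PTIP +/+. All 8 signals were below the level, so no fold is given and Kit was not tested. Among blood and mast cell markers, Mcpt4 and Fcer1a were below the level on all arrays, and the summed signal of the 7 markers was 642.8 and 551.8 in PTIP -/-, against 523.4 and 460.0 in PTIP +/+. The brightest of them, Csf1r, itself a receptor tyrosine kinase, read 278.2 and 226.0 in PTIP -/-, against 277.0 and 218.1 in PTIP +/+.

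**Figure D3:**
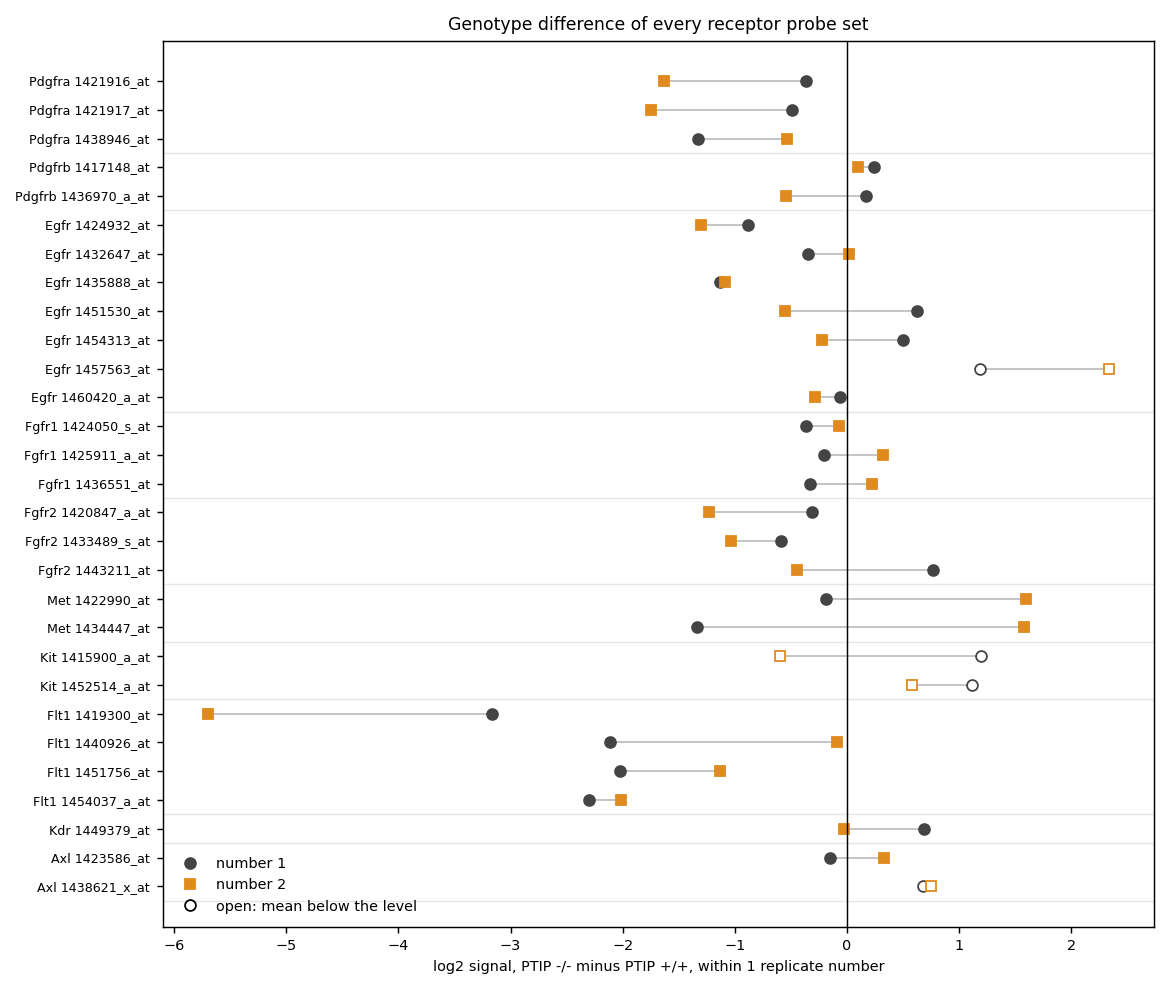
Log2 signal difference, PTIP -/- minus PTIP +/+, of all 29 receptor probe sets, with number 1 as circles and number 2 as squares; open symbols mark 4 probe sets whose mean lies below the level. The 4 probe sets of Flt1 and the 3 of Pdgfra lie to the left of 0 in both numbers, and the 2 of Met lie on both sides of it.

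Counted together, 5 of the 9 receptors tested were lower in PTIP -/- and 4 higher, where 43.9% of all genes tested were lower. Their median log2 change was -0.17, with -0.20 in number 1 and -0.28 in number 2. With arrays centred on their medians 8 of the 9 were lower. That scaling moves the median of all genes by -0.18, to -0.13, so more genes were lower than higher there. The 43.9% is for the deposited scale. By limma 0 of the 9 receptors, and 0% of all genes, passed at an adjusted p under 0.05, while 286 genes had an unadjusted p under 0.05. Flt1 and Fgfr2 were at least 1.5-fold lower within both numbers, as were 2.21% of all genes, and 0 receptors at least 1.5-fold higher, against 3.43% of all genes. Within both numbers 4 of the 9 (Flt1, Pdgfra, Fgfr2 and Egfr) were lower, beside 25.8% of all genes, and the other 5 differed in sign between the numbers, beside 40.2%. Of the 25 receptor probe sets above the level, 13 were lower within both numbers and 11 differed in sign, beside 22.3% and 41.7% of all probe sets above it. As measured, 6 were at least 1.5-fold lower within both numbers, 3 of them for Flt1, 2 for Egfr and 1 for Fgfr2, where 2% of all probe sets above the level were. Probe sets of a gene read the same RNA and are not separate support. For 1 gene with 2 arrays a genotype the smallest two-sided p of an exact permutation test is 0.333, and a p that misses the threshold does not show that a receptor did not differ.

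Ligands of these receptors were taken from lists of 33 genes, of which 24 could be tested. Of these, 15 were higher and 9 lower in PTIP -/-, with a median of 0.27 and 0 passing by limma. On the deposited scale 7014 of all 12509 genes tested were higher and 5495 lower, to be read beside the count of each list here and below. Quantile normalization gave 13 higher and 11 lower with a median of 0.16, and centred arrays the same counts with 0.09. The median of all genes tested was 0.0059 after quantile normalization and -0.13 with centred arrays. The rescaled counts here and below are to be read beside these medians. Fgf7, a mesenchymal growth factor that acts on the epithelial form of Fgfr2, was the brightest ligand listed for Fgfr2 and had the largest difference. It read 462.8 and 370.2 in PTIP -/-, against 1592.2 and 3536.5 in PTIP +/+, 5.73-fold lower (log2 -2.52 ± 0.48, SE). The difference was 3.44-fold in number 1 and 9.55-fold in number 2, and the second probe set gave -2.49. Fgf10, a related ligand of the same receptor form, was 2.10-fold lower at 145.0 and 102.1 in PTIP -/-, against 162.9 and 401.8 in PTIP +/+, nearly all of it in number 2. Fgf9 read 77.9 and 178.6 in PTIP -/-, against 74.8 and 41.0 in PTIP +/+, the last of them below the level, and was at least 3.75-fold higher in number 2. Fgf4, the brightest listed ligand of Fgfr1, differed by 0.13 ± 0.61 (SE) and by -0.05 with centred arrays. All other probe sets of Fgf4 were below the level on all 4 arrays.

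Kitl, stem cell factor, is the ligand of Kit, and was lower in both PTIP -/- arrays than in either PTIP +/+ array. It read 884.5 and 225.7 in PTIP -/-, against 2531.0 and 989.1 in PTIP +/+, 3.54-fold lower (log2 -1.82 ± 0.86, SE), with 2.86-fold in number 1 and 4.38-fold in number 2. Its other probe sets gave -0.51 to -1.46, and on 1415854_at and 1448117_at the genotypes overlapped. Pdgfc, a ligand of Pdgfra, went the other way at 4955.6 and 7565.1 in PTIP -/-, against 3255.2 and 3252.0 in PTIP +/+. That is 1.88-fold higher (log2 0.91 ± 0.32, SE), 1.52-fold in number 1 and 2.33-fold in number 2, with 1.12 on the second probe set. Pdgfd, a ligand of Pdgfrb, was lower by 3.89-fold in number 1 and higher by 1.03-fold in number 2. A second Pdgfd probe set was lower in both, by at least 3.17-fold in number 1 and by 1.56-fold in number 2. The dim Pdgfb differed by 0.49 ± 0.37 (SE).

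Among the genes listed as ligands of Flt1 or Kdr, Vegfa read 808.2 and 366.2 in PTIP -/-, against 1066.9 and 488.2 in PTIP +/+. It was lower by 1.32-fold in number 1 and by 1.33-fold in number 2, with -0.96 on a second probe set. Vegfb was 1.35-fold higher at 926.6 and 974.8 in PTIP -/-, against 574.8 and 861.7 in PTIP +/+. Vegfd, the brightest gene put on the list for Kdr, differed by -0.33 ± 1.21 (SE), with opposite signs in the numbers. Whether mouse VEGF-D binds Kdr was not examined. Of the EGF family, Ereg was 1.80-fold lower (1486.6 and 549.2 in PTIP -/-, 1691.9 and 1557.2 in PTIP +/+), and Tgfa 1.61-fold higher, although its dimmer probe sets gave 0.0067 and -0.28. Egf read 88.3 and 78.1 in PTIP -/-, against 71.1 and 44.5 in PTIP +/+, the last of them below the level, and was at least 1.64-fold higher in number 2. Hbegf, the brightest of them, differed by -0.37 ± 0.77 (SE), and its second probe set by 0.05. Gas6, the ligand of Axl, differed by 0.30 ± 0.32 (SE), and Hgf, the ligand of Met, was too dim to be tested.

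**Figure D4:**
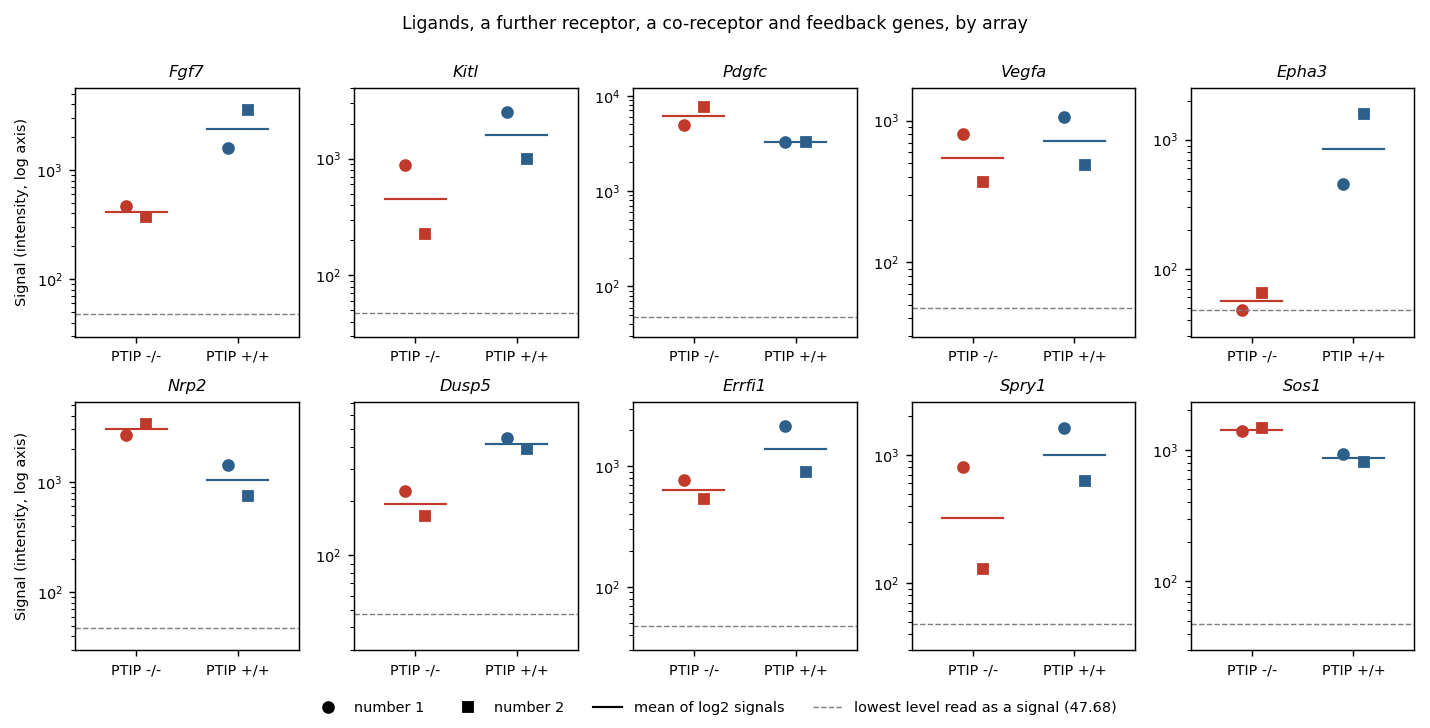
Signal (intensity, log axis, its own scale in every panel) of 10 of the named ligands, receptors, co-receptors, adaptors and feedback genes in 2 PTIP -/- and 2 PTIP +/+ arrays; circles are number 1, squares number 2, bars the mean of the log2 signals. Fgf7, Kitl, Epha3, Dusp5 and Errfi1 are lower in both PTIP -/- arrays than in either PTIP +/+ array, and Pdgfc, Nrp2 and Sos1 are higher. Of all genes tested, 12.1% had the first order and 16.6% the reverse. Only brightest probe sets are shown, and Kitl, Errfi1, Nrp2 and Sos1 have other probe sets on which the genotypes overlapped.

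Of 42 other receptor tyrosine kinases on the list, 29 were tested, 14 lower and 15 higher, with a median of 0.03 and 0 passing. After quantile normalization 17 were lower and 12 higher (median -0.14), as they were with centred arrays (-0.15). Epha3, an ephrin receptor, had the largest difference. It read 47.9 and 65.1 in PTIP -/-, against 451.8 and 1578.4 in PTIP +/+, 15.1-fold lower (log2 -3.92 ± 0.69, SE), with 9.43-fold in number 1 and 24.2-fold in number 2. Its PTIP -/- signals were close to the level of 47.68. On its other 3 probe sets both PTIP -/- arrays were below the level, and PTIP -/- was at least 5.07-fold, 7.52-fold and 2.75-fold lower. Ror1, a receptor for Wnt5a, read 52.0 and 22.0 in PTIP -/-, against 72.2 and 156.9 in PTIP +/+. With 22.0 below the level, it was at least 3.29-fold lower in number 2, and a probe set with both PTIP -/- arrays above the level gave 0.54. Fgfr3 was lower by 5.11-fold in number 2 and higher by 1.15-fold in number 1, and a second probe set gave 0.12.

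Co-receptors split, with 7 of 11 tested lower, 4 higher and 0 passing, and 5 lower and 6 higher after quantile normalization. Nrp2, a neuropilin that binds VEGF-C and semaphorins, was 2.90-fold higher in PTIP -/- at 2689.7 and 3343.8, against 1425.4 and 748.7 in PTIP +/+ (log2 1.54 ± 0.42, SE). Its other 3 probe sets gave 1.64 to 2.40. Sdc3, a heparan sulphate proteoglycan, was higher by 1.24-fold in number 1 and by 3.34-fold in number 2. Gpc3, a glypican, was 1.26-fold higher in number 1 and 6.14-fold lower in number 2.

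Of 18 adaptors and relays of the Ras and ERK route tested, 13 were higher and 5 lower, beside 7014 and 5495 of all 12509 genes. Their median was 0.19 and 0 passed, but with centred arrays 9 were higher and 9 lower. Sos1, the exchange factor for Ras, was the farthest, at 1399.3 and 1452.6 in PTIP -/-, against 931.0 and 810.9 in PTIP +/+. It was 1.64-fold higher (log2 0.71 ± 0.25, SE), with 0.20 to 1.06 on its other probe sets. Pik3r1, a regulatory subunit of PI3 kinase, was 1.41-fold higher and Plcg1, a phospholipase C, 1.39-fold higher.

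The genes that damp receptor signals were 14 higher and 9 lower of 23 tested, with a median of 0.23 and 0 passing. With centred arrays 12 were higher and 11 lower, with a median of 0.055. The 3 with the largest differences were all lower. Dusp5, a phosphatase of nuclear ERK, read 228.1 and 165.2 in PTIP -/-, against 445.4 and 387.4 in PTIP +/+, 2.14-fold lower (log2 -1.10 ± 0.30, SE). It was lower by 1.95-fold in number 1 and by 2.35-fold in number 2. Errfi1, an inhibitor of Egfr, read 766.7 and 531.2 in PTIP -/-, against 2139.0 and 894.1 in PTIP +/+, 2.17-fold lower, with -0.74 on a second probe set. Spry1, a Sprouty inhibitor of FGF signals, read 802.9 and 129.5 in PTIP -/-, against 1631.2 and 622.5 in PTIP +/+, lower by 2.03-fold in number 1 and by 4.81-fold in number 2. Choosing the largest differences picks genes that stand out, so the rest of the list is not described by them.

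Of 7 ETS factors tested, several of which ERK switches on, 5 were higher and 2 lower, with a median of 0.31 and 0 passing (4 higher and 3 lower with centred arrays). Etv4 was 1.37-fold lower in number 1 and higher in number 2 by at least 3.41-fold, at 556.1 and 162.7 in PTIP -/-, against 761.9 and 35.9 in PTIP +/+. Its second probe set, at 113.4 and 69.1 in PTIP -/-, against 137.7 and 62.2 in PTIP +/+, gave 1.11-fold higher in number 2 and -0.06 over all arrays. Ets1 was higher by 1.36-fold in number 1 and by 1.48-fold in number 2, and Elk3 differed by 0.39 ± 0.72 (SE). The summed melanocyte markers ran from 444.3 to 471.2 in PTIP -/- and from 302.6 to 584.4 in PTIP +/+, with Mitf the brightest, and Tyrp1 and Mlana were below the level on all arrays. Epithelial markers summed to 821.2 and 518.6 in PTIP -/-, against 607.8 and 430.4 in PTIP +/+. Cdh1 was below the level on all arrays. Epcam was the brightest, at 436.1 and 291.5 in PTIP -/-, against 356 and 220.4 in PTIP +/+. The other Epcam probe set, 1416579_a_at, read 8 and 6.9 in PTIP -/-, against 2.1 and 8.8 in PTIP +/+. These signals were all below the level, so only the brightest probe set puts Epcam above it. Pericyte and smooth muscle markers summed to between 32726.3 and 36759.9 in PTIP -/- and between 34842.7 and 39084.1 in PTIP +/+, nearly all of it from Acta2. That sum follows the brightest Acta2 probe set, on which the genotypes overlapped. The dimmer Acta2 probe sets 1444105_at and 1456658_at were 2.55-fold and 1.71-fold higher in PTIP -/-, without overlap. Cspg4 was 1.74-fold lower, also without overlap. Of the 5 markers of this list tested, 2 were lower and 3 higher. The 9 fibroblast markers summed to 165969 and 152127 in PTIP -/-, against 173321 and 184478 in PTIP +/+. On the deposited scale the fibroblast sums were lower and the blood and mast cell sums higher in both PTIP -/- arrays. The other sums overlapped. So did the sums of the 3 blood and mast cell markers bright enough to be tested. These ran from 404.5 to 509.4 in PTIP -/- and from 404.5 to 409.3 in PTIP +/+. All 3 were higher on the deposited scale, but 2 were lower and 1 higher after quantile normalization. The part of the fibroblast or the blood and mast cell markers in the receptor values was not tested.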

How the data were processed

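The authors deposited 1 linear intensity for each of 45101 probe sets on 4 Affymetrix arrays. RMA is the one tool in the submitters' processing notes, without a version. The deposited intensities are linear and share a 2% trimmed mean of 500, which is not the usual output of RMA; how background was corrected and probes were summarised is not given here. The 64 control probe sets were left out, the single 0 was replaced by 0.1, and log2 was taken of the deposited intensities. The platform annotation gives 1 symbol for 34945 of the remaining probe sets, several for 932 and none for 9160. Symbols were updated through the gene number for 34741 probe sets in the RefSeq table of GRCm38.p6.

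Each gene was represented by its brightest probe set, and 12509 genes whose mean log2 signal reached the 40th percentile of probe-set means were tested. The genotypes were compared by limma 3.58.1 in R 4.3.3 (lmFit, eBayes, 4 arrays, no covariate, 2 residual degrees of freedom), with Benjamini-Hochberg adjustment over all genes. The 27022 probe sets above the level had a fit of their own. Standard errors (SE) are those of the moderated fit and count the difference between the numbers as error. Within a number, a dimmer signal below the level of 47.68 was raised to it and the fold written as "at least". Comparisons within a number set 1 array against 1 array and carry no test.

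The genes named are the 10 receptors, Paxip1, the brightest tested ligand listed for each receptor and the brightest marker of each cell type. The 3 tested members with the largest change in each list are also named when none passed. Receptors and lists were chosen with earlier results of these data known. The model was also run on simulated data whose arrays were drawn independently, unlike the same-numbered arrays here. Its outcome is not given, and no result rests on it. Alternatives were quantile normalization, arrays centred on their medians, a filter set at the 60th percentile or none, a variance trend with robust moderation, averaging all probe sets of a gene, signals raised to the level, a pseudocount of 16, the replicate number as a block and each array left out.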

Additional observations from a re-analysis of the deposited data

How the results depend on the processing

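Under 13 alternatives 0 genes passed at an adjusted p under 0.05 by limma (164 to 982 at an unadjusted p under 0.05), and under 8 alternatives 0 probe sets passed. Flt1 was lower in PTIP -/- under all 13, from -2.84 to -1.48, and Kdr higher under all 12 that could give a value, its mean falling below the filter at the 60th percentile. With arrays centred on their medians Fgfr1 (-0.12), Met (-0.058) and Axl (-0.089) turned below 0 and the receptor median was -0.35. Averaging all probe sets of a gene gave -0.072 for Fgfr1 and a receptor median of -0.072, and no level filter, which adds Kit, gave a median of -0.056. Leaving out each array in turn also leaves the numbers unequal between the genotypes, and values then ran from -3.29 to 1.06 for Pdgfra, -0.51 to 0.15 for Pdgfrb, -0.43 to 0.089 for Egfr, -0.37 to 0.48 for Fgfr1, -2.24 to 0.61 for Fgfr2, -1.71 to 1.95 for Met and -0.26 to 0.44 for Axl. The receptor median ran from -0.32 to 0.21. The reversals in that range were 1.06 (without PTIP -/- replicate 2) and 0.43 (without PTIP +/+ replicate 1) for Pdgfra, 0.15 for Pdgfrb and 0.089 for Egfr (both without PTIP -/- replicate 2). Without PTIP -/- replicate 1 they were -0.10 for Fgfr1, 0.39 for Fgfr2, -0.25 for Met and -0.02 for Axl, and without PTIP +/+ replicate 2 they were -0.37, 0.61, -1.71 and -0.26. Centring moves the median of all genes by -0.18; for the other reversals the cause was not tested. With the replicate block, 1 residual degree of freedom is left and the log2 changes are the same by construction. Flt1, Fgfr2 and Pdgfra then had an adjusted p of 0.601 by limma, and no call changed. At an unadjusted p under 0.05 the block adds Fgfr2 to Flt1, and 982 genes are under that mark, against 286 without it. Deviations of same-numbered arrays from their genotype means correlated at 0.686 across genes, which are not independent replicates. There are only 2 pairs, and no label says what a number means. What same-numbered arrays have in common was not tested. Signal near the level limits Kit, the dim probe sets of Egfr and the PTIP -/- arrays of Flt1 in number 2.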
